A study of Mus musculus with 10 samples.

Results

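The HoxC cluster genes Hoxc4, Hoxc5, Hoxc6, Hoxc8, Hoxc9, Hoxc10, Hoxc11 and Hoxc12 were followed in ChIP-seq data from mouse embryonic stem (ES) cells, with antibodies against H3K27me3 and EZH2. The members were taken by their gene symbols, and all 8 have a row among the 24500 genes counted. H3K27me3 is trimethylated lysine 27 of histone H3, and EZH2 is the catalytic subunit of Polycomb repressive complex 2 (PRC2), which places that mark. Control cells were wild-type E14, an established mouse ES cell line of the strain 12910la. The ex14D-Ezh2 cells (ex14D below) were E14 cells of the same strain in which exon 14 of Ezh2 was disrupted with CRISPR-Cas9, so that the spliced form without this exon is the functional form left, and their labels call them an Ezh2 knockout. No treatment or differentiation is named for any of the 10 libraries. Each genotype had 2 H3K27me3 libraries, 2 EZH2 libraries and 1 input library, and nothing says whether the 2 libraries came from separate clones or cultures. ChIP reads over Ezh2 cannot check the genotype.

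Hox genes encode homeodomain transcription factors that give cells of the embryo their position along the head-to-tail axis. They lie in 4 clusters, and within a cluster the genes follow each other on the chromosome in the order of the body levels at which they act. In ES cells these clusters are silent and are covered by PRC2 and H3K27me3, and they are the textbook example of long Polycomb domains. PRC2 in mammals is drawn to CpG-rich DNA.

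On chromosome 15 of GRCm38 (mm10) the members lie on the forward strand over 100.031 kb, from 102936826 to 103036856. Hoxc12, at the posterior end, runs from 102936826 to 102938609. It is followed by Hoxc11 (102954526 to 102956701), Hoxc10 (102966796 to 102971898), Hoxc9 (102977032 to 102984444), Hoxc8 (102990539 to 102994275), Hoxc6 (102998226 to 103011882, with its curated transcription start site, TSS, at 103009562) and Hoxc5 (103014008 to 103017429). Hoxc4, at the anterior end, has a gene record from 103018097 to 103036856, and its curated TSS is at 103034395. The 1 kb windows centred on the curated TSSs held 26 (Hoxc6) to 77 (Hoxc12) CG dinucleotides, with a median of 47.5 over the members against 40 over 23526 placed genes. A pair of 200 base stretches shows the range of CpG content within the cluster. The stretch with most CGs outside exons and promoter windows has 22 of them and lies between Hoxc12 and the end of Hotair, 6.20 kb after the Hoxc12 TSS. The stretch at the centre of the gap in the EZH2 domains of both ex14D libraries, described further on, has 1 CG. Both are written 5′ to 3′ on the forward strand, and capitals mark each CG.
CpG-rich stretch, chr15:102942926-102943125: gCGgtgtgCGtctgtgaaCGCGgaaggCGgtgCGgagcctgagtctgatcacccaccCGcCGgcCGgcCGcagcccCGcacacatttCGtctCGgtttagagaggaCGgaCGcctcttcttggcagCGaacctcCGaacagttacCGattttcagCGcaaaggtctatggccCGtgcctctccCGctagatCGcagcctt
EZH2 gap, chr15:103023401-103023600: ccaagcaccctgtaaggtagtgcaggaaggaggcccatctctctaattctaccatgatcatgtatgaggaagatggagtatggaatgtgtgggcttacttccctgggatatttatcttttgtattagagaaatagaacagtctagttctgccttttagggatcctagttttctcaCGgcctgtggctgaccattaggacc
Among 1142 such windows of the cluster, 99.9% held fewer CGs than the CpG-rich stretch and 22.5% held fewer than the stretch in the gap.

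Values below are CPM, the reads of a promoter scaled to the same total of reads on genes in every library. Reads on genes numbered 594289 and 937207 in the control H3K27me3 libraries, 1450937 and 1248018 in the ex14D H3K27me3 libraries, 409371 and 416778 in the inputs and 13628137 to 18403892 in the EZH2 libraries. Reads on genes were 5.65% to 7.58% of all counted reads in the H3K27me3 libraries, with both ex14D libraries above both control libraries. CPM are shares of a library, and no spike-in is named, so they do not give the amount of the mark per cell. At the promoters of the ES cell genes Pou5f1, Nanog, Sox2, Zfp42 and Esrrb, 5 of the 6 markers examined, the 4 H3K27me3 libraries lay below input. At the promoter of the remaining marker, Klf4, they lay above it. The 5 fibroblast markers lay above input in both control libraries, and edgeR called Pdgfra and Twist1 higher in ex14D. The log2 fold changes of Col1a1, Col1a2 and Thy1 were -0.29, -0.20 and -0.31 (edgeR adjusted p of 0.497 to 0.807), and with library size only 1 of the 5 was called higher and 1 lower. Klf4 was called lower, a call that was lost with all counted reads as library size and when libraries were centred on unmarked promoters.

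In control cells all 8 HoxC promoters carried H3K27me3 above input. At 7 of the 8 promoters both ex14D libraries held a larger share of the H3K27me3 reads than both control libraries. At Hoxc4 the mean share was larger in ex14D too, but the libraries overlapped. The members' summed reads were 0.425% and 0.366% of reads on genes in control, against 0.740% and 0.908% in ex14D. In the inputs they were 0.0430% and 0.0374%. The order of replicates is 1, 2 in each sentence below, control before ex14D.

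Among the posterior members, Hoxc12 had 782 and 605 CPM of H3K27me3 in control and 1452 and 1836 CPM in ex14D. Hoxc11, which acts at hindlimb levels, had 666 and 503 CPM in control and 1018 and 1208 CPM in ex14D. Hoxc10, known from motor neurons of the lumbar spinal cord, had 517 and 477 CPM in control and 861 and 1077 CPM in ex14D. At these genes both ex14D libraries were above both control libraries, with ex14D replicate 2 the highest. Hoxc9, which sets thoracic identity in motor neurons, had 772 and 487 CPM in control and 1113 and 1333 CPM in ex14D. Here the control libraries differed most from each other, and still lay below both ex14D libraries.

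Hoxc8, which patterns the thorax and the lower forelimb level of the spinal cord, had 599 and 562 CPM in control and 1345 and 1691 CPM in ex14D. Hoxc6, which marks motor neurons at the forelimb level, had 515 and 544 CPM in control and 1008 and 1234 CPM in ex14D. Hoxc5, which acts at the neck level, had 165 and 185 CPM in control and 289 and 415 CPM in ex14D. These genes too had both ex14D libraries above both control libraries. Hoxc4, the most anterior member, had 236 and 297 CPM in control and 309 and 284 CPM in ex14D. The Hoxc4 groups overlapped, since ex14D replicate 2 lay between the control libraries. The groups did not overlap at 7 of 8 members, and ex14D was above control at 9.1% of the 14883 genes tested.

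**Figure D1:**
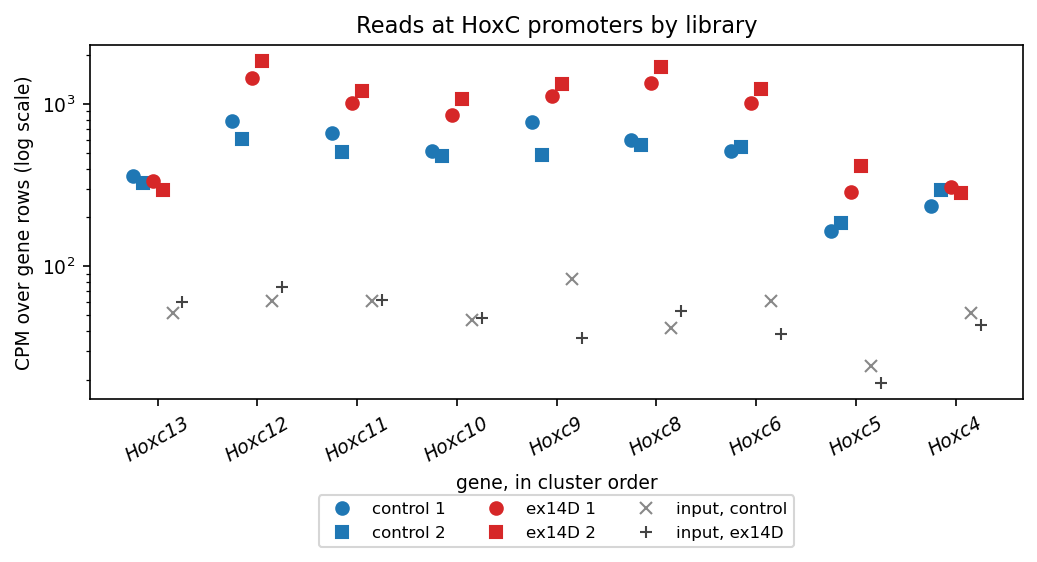
CPM over gene rows on a log axis for Hoxc13 and the 8 members in cluster order, with 1 point per library (blue control, red ex14D, grey and black input; circles replicate 1, squares replicate 2). From Hoxc12 to Hoxc5 both red points lie above both blue points, at Hoxc4 and Hoxc13 they overlap, and all H3K27me3 points lie above the inputs.

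The order of the levels was similar in both genotypes. In control, from the highest, it was Hoxc12 at 694 ± 125 CPM (SD, n = 2), Hoxc9, Hoxc11, Hoxc8, Hoxc6 and Hoxc10 at 497 ± 28.0 CPM (SD, n = 2), then Hoxc4 at 266 ± 43.2 CPM and Hoxc5 at 175 ± 13.9 CPM (SD, n = 2 each). Neighbours from Hoxc12 to Hoxc8 overlapped in their libraries, as did Hoxc6 and Hoxc10. Within each control library Hoxc12 was above Hoxc9, and the other overlapping neighbours switched order between the libraries. Both libraries of Hoxc8 lay above both of Hoxc6, and the libraries of Hoxc10, Hoxc4 and Hoxc5 were apart. In ex14D the order was Hoxc12 at 1644 ± 271 CPM (SD, n = 2), Hoxc8, Hoxc9, Hoxc6, Hoxc11 and Hoxc10 at 969 ± 153 CPM (SD, n = 2), then Hoxc5 at 352 ± 89.3 CPM and Hoxc4 at 297 ± 18.2 CPM (SD, n = 2 each). Neighbours overlapped there except at the steps from Hoxc8 to Hoxc9 and from Hoxc10 to Hoxc5. Within each ex14D library, however, Hoxc12 was above Hoxc8, Hoxc9 above Hoxc6 and Hoxc11 above Hoxc10. Hoxc6 and Hoxc11 switched order between the ex14D libraries, as did Hoxc5 and Hoxc4. By their means, Hoxc5 and Hoxc4 stood in the opposite order to control. All of these compare windows of the same length. The Hoxc5 window, if centred on its curated TSS, shares 98 bp with that of the microRNA gene Mir615, and reads on more than 1 window were given to no gene. Its inputs were the lowest of the members, with 10 and 8 reads.

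Relative to all genes the members were near the top. By CPM, they stood above 93.5% to 99.9% of the 24500 genes in the H3K27me3 libraries, and Hoxc12 was at rank 28 and 40 in control and 24 and 21 in ex14D. The median log2((CPM + 1)/(input CPM + 1)) of the members was 3.31 and 3.08 in control, against 4.20 and 4.53 in ex14D. The median over all genes was -1.45 and -1.51 in control, against -1.92 and -1.84 in ex14D, so it moved in the opposite direction. As a fold over the input of the same genotype, with a pseudocount of 1 CPM, Hoxc8 was highest in control at 13.7 ± 0.611 (SD, n = 2) and 28.2 ± 4.56 (SD, n = 2) in ex14D. Hoxc4 was lowest in both, at 5.11 ± 0.825 and 6.73 ± 0.413 (SD, n = 2 each). Hoxc9 went over input from 7.50 ± 2.40 to 33.1 ± 4.21 (SD, n = 2 each), a larger step than in CPM, and its input held 34 reads in control and 15 in ex14D. The single input library per genotype limits these folds, because the members had 8 to 34 input reads, and 8 reads have an exact 95% Poisson interval of 3.45 to 15.8, for counting error only.

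The difference between genotypes was tested with edgeR's quasi-likelihood test on the counts of all genes, with TMM normalization and Benjamini-Hochberg adjustment, and log2 fold changes are ex14D against control. Of the 8 members, all of which passed the filter on low counts, 7 were higher in ex14D and none was lower. Among the 14883 genes tested, 5.85% were called higher, 3.19% lower and 9.04% in either direction. All 8 members had a positive log2 fold change. The members' median was 1.44 and that of all genes was -0.02. Taking each control library with each ex14D library, 4 pairs of libraries in all, the members' median lay between 1.18 and 1.71. With 2 libraries in each group, an exact permutation test of a single value cannot go below p = 0.333 (two-sided).

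The largest log2 fold change was at Hoxc8, at 1.84 with a standard error of 0.21 (edgeR adjusted p = 2.74e-06), which placed it at rank 65 of 14883. Hoxc12 followed with 1.70 (standard error 0.21, adjusted p = 7.25e-06) and Hoxc6 with 1.53 (standard error 0.20, adjusted p = 1.17e-05). The 4 other genes called higher lay close together, from 1.38 at Hoxc11 (standard error 0.21, adjusted p = 5.32e-05) to 1.46 at Hoxc5 (standard error 0.22, adjusted p = 5.33e-05), with Hoxc9 at 1.41 and Hoxc10 at 1.42. These 4 lay within 1 standard error of each other. Hoxc4 had a log2 fold change of 0.60 (standard error 0.20, adjusted p = 0.0627), above that of 84.5% of the genes tested. It was the only member that did not pass the threshold. It did pass narrowly with DESeq2 size factors in edgeR (0.63, adjusted p = 0.0499) and when libraries were centred on unmarked promoters (0.66, adjusted p = 0.0402), and over all alternatives its adjusted p ranged up to 0.646.

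How libraries are scaled moves all of these values together. With library size in place of TMM the median of all genes was -0.47, 398 genes (2.67%) were called higher and 2176 lower, and the same 7 members were called higher. The members' median was then 0.98, and Hoxc4 was at 0.15 (adjusted p = 0.646). Relative to the median of all genes, the members' median was 1.46 with TMM and 1.46 with library size. These values agree because scaling moves the members and all genes together, so they are no separate check. With control replicate 2 left out, Hoxc5 (adjusted p = 0.0641), Hoxc9 (0.0602) and Hoxc11 (0.053) did not pass the threshold and 4 members did, with log2 fold changes of 1.07 to 1.74 over the 7.

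Scaling does not enter the ratio of counts between members within a library. The count of Hoxc8 over that of Hoxc4, as a log2 ratio, was 1.35 and 0.92 in control against 2.12 and 2.58 in ex14D. For Hoxc12 over Hoxc4 it was 1.73 and 1.03 in control against 2.23 and 2.69 in ex14D. For Hoxc5, the neighbour of Hoxc4, it was -0.51 and -0.68 in control against -0.10 and 0.55 in ex14D. At each of the 7 other members the ratio to Hoxc4 was higher in both ex14D libraries than in both control libraries (exact permutation p = 0.333, the lowest possible), and 6.01% of all genes tested had such a ratio. Their log2 fold changes exceeded that of Hoxc4 by 0.78 (Hoxc11) to 1.24 (Hoxc8), with standard errors of 0.29 to 0.30 that treat the genes as independent. Hoxc4 had the smallest log2 fold change of the members, so its use as the reference favours higher ratios.

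The gene next to Hoxc12, Hoxc13, is not among the members. It is known for its role in hair and nails and closes the cluster at the posterior end. Hoxc13 had 362 and 327 CPM of H3K27me3 in control and 334 and 293 CPM in ex14D. Its groups overlapped, with a log2 fold change of 0.32 (standard error 0.20, adjusted p = 0.399) that became -0.13 with library size only. The log2 ratio of Hoxc12 to Hoxc13 was 1.11 and 0.89 in control against 2.12 and 2.65 in ex14D. All 8 members had a higher ratio to Hoxc13 in both ex14D libraries than in both control libraries, as had 11.5% of genes tested. The low log2 fold change of Hoxc13 favours this. For Hoxc4 the excess over Hoxc13 was 0.28 (standard error 0.28). The genes at both ends of the cluster, Hoxc4 and Hoxc13, had the smallest log2 fold changes of its 9 Hox genes, and those between them had 1.38 to 1.84.

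**Figure D2:**
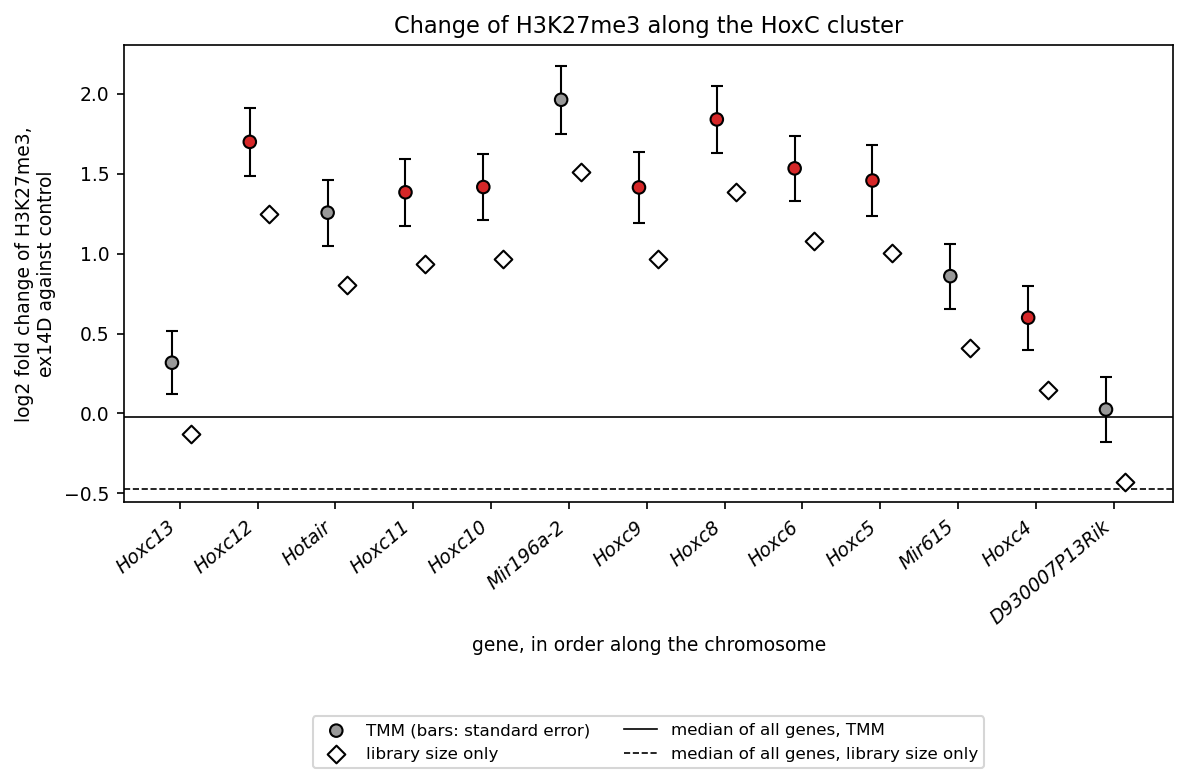
Log2 fold change of H3K27me3 (ex14D against control) for HoxC genes, noncoding genes of the cluster and the nearest gene beyond Hoxc4, in order along the chromosome. Circles are edgeR values with TMM (red for members, grey for others; bars are standard errors), diamonds are values with library size only, and lines are the medians of all genes; members from Hoxc12 to Hoxc5 lie at 1.38 to 1.84, Hoxc4 at 0.60 and Hoxc13 at 0.32.

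The noncoding genes between the members changed in the same direction. All 3 were called higher with TMM. Hotair, a long noncoding RNA gene antisense to the cluster between Hoxc12 and Hoxc11, had 291 and 343 CPM in control and 489 and 621 CPM in ex14D, with a log2 fold change of 1.26. Mir196a-2, between Hoxc10 and Hoxc9, makes a microRNA that targets Hox transcripts, and had 624 and 681 CPM in control and 1604 and 2114 CPM in ex14D, with a log2 fold change of 1.96. Mir615, which lies within Hoxc5, had 353 and 283 CPM in control and 407 and 435 CPM in ex14D, with a log2 fold change of 0.86 (edgeR adjusted p = 0.00611). Mir615 was not called with library size only, where 2 of the 3 were.

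MACS2 peaks, called by the authors in each library, gave 1 unbroken H3K27me3 peak over the whole cluster in all 4 libraries. It measured 137 and 140 kb in control and 135 kb in both ex14D libraries, and so was slightly shorter in ex14D. By width it was at rank 1 of 12318 and rank 1 of 19978 peaks in control, and at rank 3 of 14441 and rank 2 of 9465 in ex14D. The peak covered 100% of the 100.031 kb of the members in every library, and all 8 promoter windows were covered in full. A peak touched 17.0% to 23.8% of the 23526 placed promoter windows. The fold enrichment that MACS2 gives for the peak was 4.21 and 3.38 in control against 5.75 and 6.08 in ex14D, and its −log10 q was 8.40 and 7.18 in control against 22.1 and 22.0 in ex14D. The members were thus covered alike in both genotypes, and the fold enrichment over the peak was higher in both ex14D libraries (2 against 2, exact permutation p = 0.333, the lowest possible). Among the peaks of its own library it did not stand higher. Its fold was above that of 62.3% and 55.0% of peaks in control, against 56.4% and 53.4% in ex14D. The q values also depend on depth, with 10525739 and 15683174 counted reads in control against 19151253 and 18184514 in ex14D.

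EZH2 counts could not be compared at these genes. The 4 EZH2 libraries list 0 reads at each of the 8 members, and likewise at Hoxc13 and at the 3 noncoding genes. They lie in a run of 684 neighbouring genes of chromosome 15, from Tnfrsf11b to Mucl2 (54250619 to 103899312), that are all listed at 0, and 807 of 871 genes of that chromosome are. Across the genome 10575 of 24500 genes have no EZH2 read listed in any library, Pou5f1 among them. The members' promoters all lie under an EZH2 domain, as given next, so their zeros were not read as a measure of EZH2. All 9 HoxB genes are at 0 as well, whereas 7 of 10 HoxA and 7 of 8 HoxD genes have EZH2 counts. Of these, 6 HoxA and 5 HoxD genes were lower in ex14D and none was higher, where 7.88% of 13401 genes tested were called lower and 0.0522% higher. With control replicate 1 or control replicate 2 left out, edgeR called 0 genes lower and 0 higher (1300 to 1372 lower and 186 to 198 higher at an unadjusted p under 0.05).

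EZH2 domains, called by the authors with hiddenDomains in each library in steps of 1 kb, did cover the cluster. The control libraries had a single domain over all members, of 129 kb in replicate 1 and 136 kb in replicate 2, which ranked 1 of 7322 and 2 of 7704 by width. In ex14D replicate 1 the cluster was covered by 3 domains of 112, 4 and 5 kb. In ex14D replicate 2 it was covered by 2 domains of 106 and 18 kb. The share of the members' 100.031 kb under a domain was 100% in both control libraries, 92.0% in ex14D replicate 1 and 99.0% in ex14D replicate 2. Both ex14D libraries were below both control libraries, by 8 kb and 1 kb, and 2 libraries against 2 cannot go below p = 0.333 in an exact permutation test. Every promoter window of the 8 members was covered in full in all 4 libraries. Domains touched 17.1% and 22.4% of placed promoter windows in control and 12.2% and 11.4% in ex14D.

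Within the span of the members the breaks were at the Hoxc4 end. In ex14D replicate 1 the gaps ran from 103020001 to 103026000 and from 103030001 to 103032000. In ex14D replicate 2 the gap ran from 103023001 to 103024000 and lay inside the longer gap of replicate 1. The shared 1 kb lies within the gene record of Hoxc4, 10.4 kb before its curated TSS and 5.57 kb after the end of Hoxc5, and it holds the CpG-poor stretch printed above. H3K27me3 peaks ran across all of these gaps in both genotypes. Just beyond the members, which end at 103036856, control replicate 1 had a break too, between domains ending at 103038000 and starting at 103039001. There ex14D replicate 1 had a break between 103037000 and 103040001. The domains of control replicate 2 and ex14D replicate 2 were unbroken at that place.

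**Figure D3:**
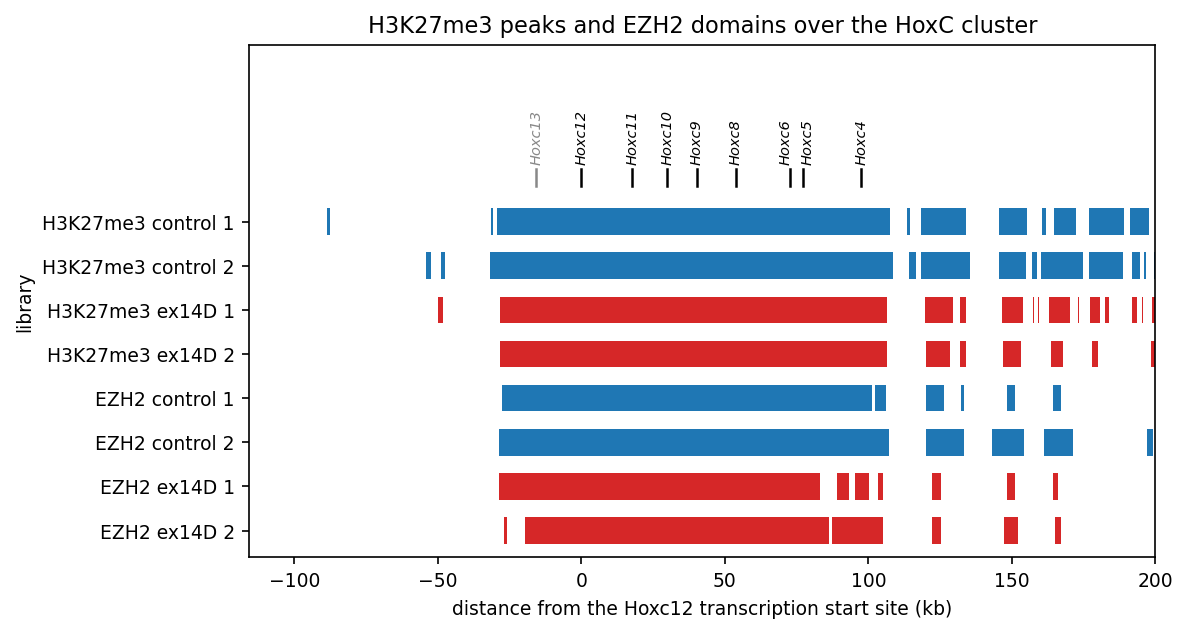
H3K27me3 peaks (4 upper rows) and EZH2 domains (4 lower rows) of each library, blue for control and red for ex14D, against distance in kb from the Hoxc12 TSS; ticks mark the curated TSSs. H3K27me3 covers the cluster without a break in all 4 libraries, EZH2 does so in both control libraries, and both ex14D EZH2 rows have a break between Hoxc5 and Hoxc4.

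The gaps were poor in CpG. The shared gap had 2 CGs in 1 kb, and the gaps of ex14D replicate 1 had 6.33 and 5.50 per kb, against 21.3 per kb over the whole cluster. Of the 99 whole 1 kb steps of the cluster, 8 lacked a domain in an ex14D library and held 0 to 19 CGs, with a median of 4. The 91 other steps held 3 to 68, with a median of 17, and 48 of them held no more than 19. The shared gap lay below every step that kept its domain. By promoter window, Hoxc4 held 30 CGs per kb and Hoxc6 26, the lowest of the members, and their log2 fold changes of H3K27me3 were 0.60 and 1.53.

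**Figure D4:**
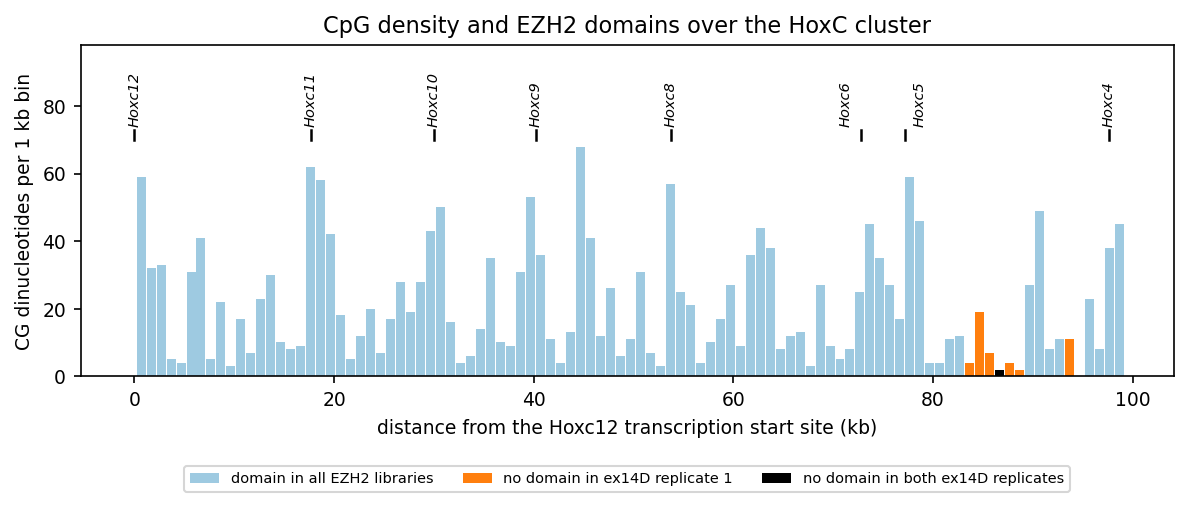
CG dinucleotides in each 1 kb step along the cluster against distance in kb from the Hoxc12 TSS, with ticks at the curated TSSs. Blue steps had an EZH2 domain in all 4 EZH2 libraries, orange steps had none in ex14D replicate 1, and the black step had none in both ex14D replicates; these 8 steps held 0 to 19 CGs, and the step with 0 shows no bar.

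Cover beyond the cluster is given for 100 kb on each side. In the 100 kb after Hoxc4, H3K27me3 peaks covered 62.2% and 69.8% in control against 42.9% and 30.7% in ex14D. EZH2 domains covered 18.1% and 43.1% of the same stretch in control against 10.1% and 15.1% in ex14D. Both antibodies had less cover there in both ex14D libraries than in both control libraries. In the 100 kb before Hoxc13, H3K27me3 peaks covered 15.5% and 19.0% in control against 14.4% and 12.6% in ex14D, and EZH2 domains covered 12.1% and 13.1% against 13.1% and 5.13%. The sum of called intervals depends on how much was called in each library, and the control libraries had 12318 and 19978 peaks against 14441 and 9465 in ex14D. The mean fold enrichment of the peaks after Hoxc4 was 3.38 and 6.43 in control against 5.08 and 3.67 in ex14D.

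The nearest counted gene on that side, D930007P13Rik, whose TSS lies 112 kb beyond that of Hoxc4, was marked as well. It had 305 and 265 CPM in control and 207 and 216 CPM in ex14D, or 6.44-fold and 5.60-fold over input in control and 3.56-fold and 3.70-fold in ex14D. Between genotypes it had a log2 fold change of 0.02 (edgeR adjusted p = 0.966), with a standard error of 0.20, and of -0.43 with library size only. Of the 5 nearest non-Hox genes on each side, 5 were tested and 0 were called by edgeR, with unadjusted p between 0.0902 and 0.903 and so 0 under 0.05, and 1 was called lower with library size only. Apart from D930007P13Rik, and Hnrnpa1, which had no read in these 6 libraries, they lay below input in all 4 H3K27me3 libraries.

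The other Hox clusters moved in the same direction, in values relative to the other genes and not in amounts of the mark per cell. By Western blot the paper reports less H3K27me3 in ex14D cells than in control. By ChIP-PCR it reports less of the mark at several genes, Hoxa10 and Hoxd9 among them. In the counts used here Hoxa10 and Hoxd9 had log2 fold changes of 1.62 and 1.82. The median log2 fold change was 1.76 over 10 HoxA genes, 1.65 over 9 HoxB genes, 1.44 over the 8 HoxC genes and 1.39 over 8 HoxD genes, against -0.02 over all genes. All 10 HoxA and all 9 HoxB genes were called higher, as were 7 of 8 HoxD genes, with Hoxd1 at 0.61 (adjusted p = 0.340) not called. Of the genes of group 13 and the Evx genes at the cluster ends, 5 of 6 were called higher, with Hoxc13 the one that was not. HoxC, with 1 H3K27me3 peak over 100% of its span in all 4 libraries, shared this with HoxA and HoxB, whereas the HoxD span was covered to 97.7% to 100%. Domains of EZH2 over HoxA were unbroken in all 4 libraries, those over HoxB and HoxD had breaks in both ex14D libraries and in control replicate 1.

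**Figure D5:**
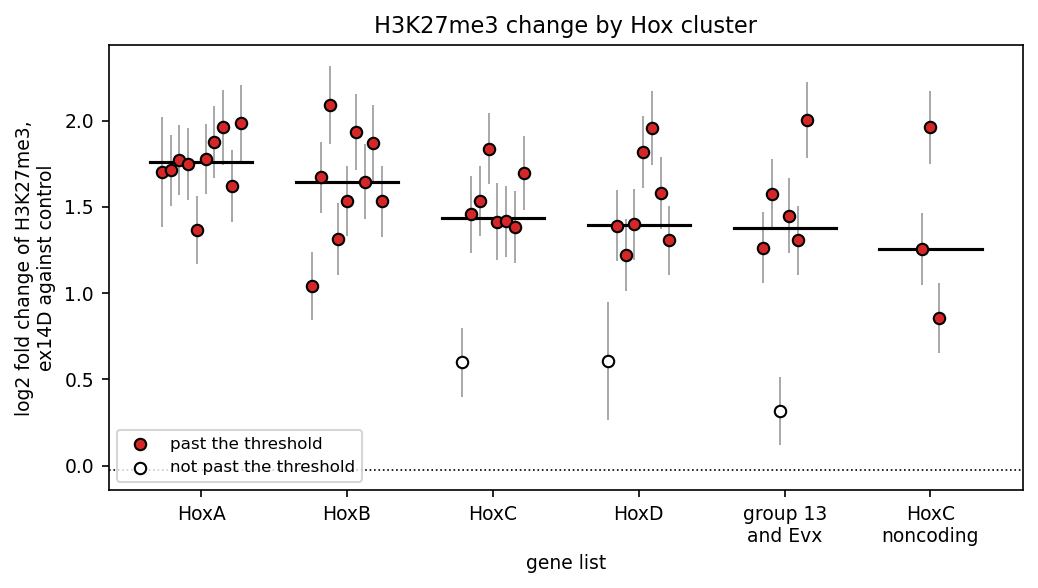
Log2 fold change of H3K27me3 (ex14D against control, edgeR with TMM) by gene list, 1 point per gene with its standard error, from the lowest to the highest group number within each Hox cluster; bars are list medians and the dotted line is the median of all genes. Filled points passed the adjusted threshold and open points, 3 of 44, did not: Hoxc4, Hoxd1 and Hoxc13.

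Outside the Hox clusters, the genes most like the members' mean in log2(CPM + 1) over the 6 H3K27me3 and input libraries were Wnt11, Nkx6-1, Rasgrf1, Wnt5a and Sox14, at Euclidean distances of 0.24 to 0.37. Wnt11, the closest, had 495 and 440 CPM in control, 773 and 933 CPM in ex14D, and 44.0 and 43.2 CPM in the inputs. All 5 had both ex14D libraries above both control libraries, which the choice by likeness favours.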

How the data were processed

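ChIP-seq of H3K27me3 and EZH2 was compared between control and ex14D-Ezh2 E14 cells. Libraries were grouped by their titles, WT or Ezh2KO, and those titled Ezh2KO were taken as ex14D. The paper describes its ES cell ChIP-seq for ex14D-Ezh2 cells, and it used separate Ezh2 knockout ES cells in other experiments. The authors aligned reads with Bowtie (Bowtie2 in the submitters' processing notes, which also name Trimmomatic, MACS2, ChIPseeker and HTSeq; versions are not given in the sources used here) to mm10 and counted them with htseq-count. The deposited counts are raw, whole numbers of reads for each gene, in 1 kb windows centred on the 5′ most TSS. The methods give this window without naming an antibody. The EZH2 libraries had 43.9% to 44.3% of reads on genes and 21.2% to 21.9% ambiguous between genes. In the H3K27me3 libraries 0.315% to 0.453% were ambiguous. It is therefore not known whether the EZH2 tables hold the same window. Which TSS was used for genes with several is not known. Rows naming no gene held 92.4% to 94.4% of reads for H3K27me3, 98.1% for the inputs and 55.7% to 56.1% for EZH2, and stayed out of library sizes. For broad peaks the authors deposited MACS2's fold ratio, its score (not used here), −log10 p and −log10 q, per library; the control sample given to MACS2 is not stated. EZH2 domains are positions without a height. H3K27me3 domains from hiddenDomains were not used here because they run past the ends of 8 mm10 chromosomes in each library.

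CPM were computed over gene rows. Counts were tested with edgeR 4.0.16 in R 4.3.3 (TMM scaling, the filterByExpr filter on low counts, the quasi-likelihood test, and adjustment after Benjamini-Hochberg over all genes with a threshold of 0.05), separately for each antibody, and DESeq2 1.42.0 was an alternative. On simulated H3K27me3 counts of 14883 genes, 200 of them changed, the procedure recovered 22.0% of 2-fold and 72.0% of 4-fold changes, and 1.05% of calls were false. The simulation used a common dispersion, as many rises as falls and no general shift between genotypes. In the data the TMM factors were 1.16 and 1.18 in control against 0.87 and 0.84 in ex14D. The false share therefore does not carry over to the calls made here. The standard error of a log2 fold change was approximated from it and the square root of its F statistic. A window counted as covered with at least 1 bp under an interval. TSSs were those of curated RefSeq transcripts of GRCm38.p6, and sequence came from RefSeq's GRCm38.p6. Hoxc4 matched the RefSeq promoter table, and the 7 other members did not. Python 3.11.15, pandas 2.3.3, scipy 1.17.1, pysam 0.24.0 and matplotlib 3.10.9 were used. Alternatives were other scalings, DESeq2, no filter, a replicate block, each library left out, another pseudocount or input, stricter peaks and longer overlaps. Libraries of 1 group were no duplicates, as chi-square over its degrees of freedom was 1.95 to 2.31 for H3K27me3 and 1.48 to 3.95 for EZH2. P-values measure the spread between these libraries, which may be technical.

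The genes named are all members, the Hox genes of the other clusters as lists, 5 flanking genes on each side and the 5 genes most alike. Members and lists were chosen with earlier results of these data known.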

Additional observations from a re-analysis of the deposited data

How the results depend on the processing

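The members' median log2 fold change of H3K27me3 was positive under all 11 alternatives. It was 0.98 with library size only, 1.44 with the replicate block, and 1.27 to 1.62 with each library left out. The number of members called higher was 7, 8 with DESeq2 size factors or with libraries centred on unmarked promoters, and 4 to 7 with each library left out, the lowest without control replicate 2. Over all genes, 475 were lower and 871 higher. These counts became 2176 and 398 with library size only, 264 lower with DESeq2, and 73 to 610 lower and 255 to 797 higher with each library left out. For EZH2, 1056 genes were lower and 7 higher. With each library left out 0 to 1561 were lower and 0 to 81 higher, both 0 without either control replicate. The higher count was 47 with library size only, 2 with DESeq2 size factors, 33 with all counted reads, 3 with the replicate block, 3 when centred on unmarked promoters and 0 with DESeq2 (7 at an unadjusted p under 0.05). Scaling by all counted reads raised the members' median log2 enrichment over input from 3.20 to 3.98 in control and from 4.37 to 5.39 in ex14D. Reads on genes were 1.90% and 1.92% of all counted reads in the inputs, against 5.65% to 7.58% in the H3K27me3 libraries. The members' ratios to input therefore rise with this scaling. The cause of the other shifts was not tested. Peak cover, EZH2 domain cover in control and promoters covered kept the same values under every alternative run. In ex14D, EZH2 domain cover ranged from 92.0% to 100%. With 2 libraries, leaving 1 out cannot move a mean beyond the replicate SD, so it is no check of this cover.

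The labels do not say whether the replicate numbers pair the samples, and the correlations below cannot settle how the libraries were prepared. Deviations of same-numbered libraries correlated with r = -0.0908 for H3K27me3 and -0.0182 for EZH2, and the replicate block changed no member's call, with 755 genes higher and 406 lower for H3K27me3 and 852 lower for EZH2. EZH2 alternatives at the members could not give a value because all are listed at 0. A lone library left in a group was assumed to vary like the other group. Centring on unmarked promoters, the other choice of TSS and leaving out libraries for enrichment, cover and promoters covered were chosen after seeing the data. Each group had 2 libraries, and the members had 8 to 34 input reads, which limits the folds over input.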
